A study of Mus musculus with 7 samples.

Results

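The PP cells of mouse pancreatic islets are described here as the cluster that the authors' deposited cell table names for Ppy and numbers 6. It held 324 of 5907 kept cells: 283 of 4814 cells (5.88%, exact binomial 95% interval 5.23 to 6.58%) in replicate 1 and 41 of 1093 cells (3.75%, interval 2.71 to 5.05%) in replicate 2. The mean share was 4.81 ± 1.50% (SD, n = 2 libraries), and the intervals cover counting error only. Each PP value is set beside the main alpha, delta and beta clusters of the same library, numbered 1, 3 and 0, which held 855, 435 and 882 cells in replicate 1 and 186, 157 and 205 in replicate 2.

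The islets came from female C57BL/6 mice aged 10 weeks with no genetic change or treatment named. Both libraries were made with a modified 5' droplet assay, insulin cDNA was removed with a Cas9 panel, and the molecules were read as whole cDNAs on a Nanopore instrument. A UMI (unique molecular identifier) counts 1 captured molecule, and levels are CPM, a gene's UMIs over all UMIs of the summed cells of a cluster, scaled between sums by TMM. The labels do not name separate animals for the libraries, so the spread between them may be technical only.

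PP cells, also called gamma cells, are a rare endocrine cell type of the islet and are most frequent in the part of the pancreas that arises from the ventral bud. They secrete pancreatic polypeptide, the product of Ppy, which is released after meals through vagal input, lowers food intake and acts through the receptor encoded by Npy4r. Its gene is a neighbour and relative of Pyy, which encodes peptide YY, a satiety hormone best known from the gut. Both precursors are cut by prohormone convertases after the hormone and are then amidated.

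Both coding sequences are printed because Ppy names the cluster and Pyy is its close relative, high in the same cells. They come from GENCODE M21 on build mm10 (GRCm38), minus strand of chromosome 11, 5′ to 3′ without the stop codon, and lie within chr11:102100175-102100711 for Ppy and chr11:102106845-102107352 for Pyy. Capitals mark the 12 bases that encode the end of the hormone with its amidation and cleavage site, which start at base 193 of Ppy and base 190 of Pyy.
Ppy-201: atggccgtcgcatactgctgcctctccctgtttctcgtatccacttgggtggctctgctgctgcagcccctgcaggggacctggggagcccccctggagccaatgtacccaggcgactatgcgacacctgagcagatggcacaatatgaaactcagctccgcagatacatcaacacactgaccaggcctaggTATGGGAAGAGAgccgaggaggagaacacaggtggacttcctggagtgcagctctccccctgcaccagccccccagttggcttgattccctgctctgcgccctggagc
Pyy-201: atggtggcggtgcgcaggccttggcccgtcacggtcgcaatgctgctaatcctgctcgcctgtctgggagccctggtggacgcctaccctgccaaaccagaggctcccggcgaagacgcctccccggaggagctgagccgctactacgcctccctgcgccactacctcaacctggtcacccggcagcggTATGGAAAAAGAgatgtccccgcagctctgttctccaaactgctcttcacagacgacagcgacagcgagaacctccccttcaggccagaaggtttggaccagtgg
The aligned sequences, 300 and 294 bases long, were identical at 172 of 314 columns (54.8%), and the longest identical run was 7 bases.

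The 2 genes lie 5356 bases apart. The 250 bases before each annotated start are shown because both neighbours were highest in PP cells. They are RefSeq sequence of GRCm38.p6, minus strand, at chr11:102101320-102101569 for Ppy and chr11:102107833-102108082 for Pyy, and capitals mark matches to the motifs named after them, searched on both strands.
Ppy upstream: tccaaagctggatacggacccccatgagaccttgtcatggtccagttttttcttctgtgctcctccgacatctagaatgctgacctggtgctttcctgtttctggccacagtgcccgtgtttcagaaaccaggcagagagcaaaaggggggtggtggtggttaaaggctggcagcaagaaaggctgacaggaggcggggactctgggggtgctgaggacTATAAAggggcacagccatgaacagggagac
Pyy upstream: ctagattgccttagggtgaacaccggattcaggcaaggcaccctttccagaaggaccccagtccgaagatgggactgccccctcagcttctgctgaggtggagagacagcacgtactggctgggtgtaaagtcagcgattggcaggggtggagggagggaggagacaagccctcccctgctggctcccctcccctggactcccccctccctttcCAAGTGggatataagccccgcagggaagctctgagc
Ppy held TATAAA 31 bases before its start (position -31), a match found in 12.4% of 32851 promoters of the same length. Pyy held CANNTG at position -36, which 66.2% of those promoters hold, and neither window held TAATTA, found in 4.84%. The matches printed overlap no other motif searched, and a match is a description only.

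The summed PP cells held 914467 UMIs in replicate 1 and 611417 in replicate 2, with a median of 2796 and 13076 UMIs per cell (range 911 to 7991 and 4825 to 31374). Their mitochondrial share was 0.625 and 1.27%, against 0.861 to 1.60% and 1.66 to 3.75% in the other 3 clusters. No PP barcode was shared between the libraries. By the authors' second naming, made from transcripts, 272 of the 283 and 40 of the 41 cells were also PP cells.

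Ppy marked the cluster. It stood at 215817 and 145383 CPM in PP cells of replicates 1 and 2, against 14676 and 14941 in alpha, 23290 and 35497 in delta and 116 and 317 in beta cells. Pyy stood at 114168 and 99333 CPM in PP cells, against 17137 and 31816 in alpha, 29053 and 44231 in delta and 127 and 356 in beta cells. Both libraries put PP cells first and delta cells second for each gene, and beta cells far below. PP cells held 70.8% of all Ppy UMIs in replicate 1 but 35.0% in replicate 2, and 53.6 and 20.7% of the Pyy UMIs, so much of the message of both hormones lay in other clusters.

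**Figure D1:**
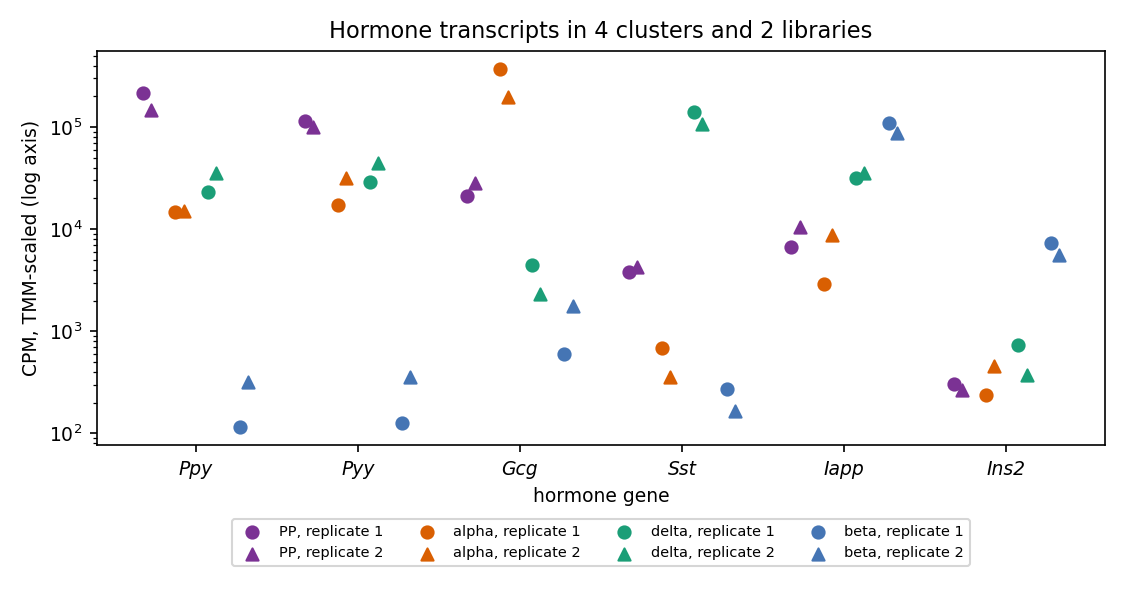
Level of 6 hormone genes (TMM-scaled CPM, log axis) in the summed PP, alpha, delta and beta clusters, each point 1 library. PP cells had the highest Ppy and Pyy of the 4 clusters in both libraries, and Ppy was at 116 and 317 CPM in beta cells.

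Of the other 3 markers named for these cells, Rcn3 and Vsig1 were found and Aqp3 was not. Rcn3, a calcium-binding protein of the endoplasmic reticulum, stood at 434 and 396 CPM in PP cells, against 123 and 162 in alpha, 78.7 and 82.1 in delta and 1.00 and 0.771 in beta cells. Vsig1, a cell adhesion protein known from stomach epithelium, had 14 and 6 UMIs in 13 and 6 PP cells, which were 73.7 and 66.7% of all its UMIs. Aqp3, a water and glycerol channel reported from human gamma cells, had 0 UMIs in every kept cell, which allows up to 3.28 and 4.91 CPM in the PP sums. In PP cells 4 of the 5 markers were therefore detected.

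Because free RNA puts abundant hormone messages into every droplet, shares of cells with a UMI were also taken after thinning each cell to 900 UMIs. A Ppy UMI was found in 98.9% of thinned PP cells of replicate 1 and all 41 of replicate 2, against 49.0 and 54.8% of alpha, 91.4 and 95.5% of delta and 6.46 and 18.05% of beta cells. Stellate cells, which should lack Ppy, gave 16.7 and 22.2%, and endothelial cells gave 5.81 and 10.0% (86 and 10 cells). The beta share lay between these levels, so it is not told apart from background. Without thinning, the shares were the same in PP cells, 58.0 and 90.9% in alpha, 94.0 and 99.4% in delta and 15.99 and 70.2% in beta cells, and 15.3 and 74.1% in stellate cells, whose median depth was 901 and 3319 UMIs. The thinned stellate values rest on 60 and 27 cells, and 58 shallower stellate cells of replicate 1 were left out.

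Genes of the PP-fold peptide system were otherwise scarce in the islet. Npy, the neuropeptide Y gene, had 0 and 5.45 CPM in PP cells, against 0.744 and 3.48 in alpha, 8.05 and 11.6 in delta and 16.4 and 12.3 in beta cells. The receptor gene Npy4r was at 0 UMIs in all 8 sums, and Npy1r was at 0 in 7 of them. Dpp4, the peptidase that trims peptide YY, stood at 26.8 and 21.8 CPM in PP cells, within 2-fold of the alpha and delta values and below the 53.9 and 38.9 of beta cells. Npy2r, Npy5r and Npy6r were not analysed here. Of 10 gene symbols listed for this system, 6 were found in the counts and 4 passed the filter. Ppy and Pyy were the 2 higher, and Ppy also names the cluster, so its call is no support.

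Within the cluster the hormones were mixed unevenly. Among all hormone genes, Ppy had the most UMIs in 240 of 283 PP cells in replicate 1 and 32 of 41 in replicate 2, Pyy in 23 and 8, and Gcg in 18 and 1. In replicate 1 the other 2 cells had Iapp ahead or a tie. These are UMI counts without correction for transcript length. The middle 80% of PP cells spanned 104480 to 303845 CPM of Ppy in replicate 1 and 84538 to 208393 in replicate 2, and 44490 to 164685 and 61633 to 130033 CPM of Pyy. Across PP cells, Ppy and Pyy per cell were nearly unrelated, with a Spearman rho of 0.056 over 283 cells and 0.168 over 41. Such values share each cell's total, and Ppy itself had a rho of -0.544 and -0.418 with the UMIs of the cell.

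Of the other islet hormones, Iapp, which encodes amylin, stood at 6630 and 10563 CPM in PP cells, against 2908 and 8732 in alpha, 31671 and 35734 in delta and 110119 and 88203 in beta cells. Median Iapp per cell ran the other way against alpha cells, at 431 and 2533 CPM in PP and 687 and 3358 in alpha cells. The 90th percentile of PP cells was 13747 and 16289 CPM, and the maximum was 170415 and 49941. Sst, the somatostatin gene, stood at 3830 and 4293 CPM in PP cells, against 684 and 358 in alpha, 140511 and 106835 in delta and 271 and 168 in beta cells. The PP sums of Sst rested on few cells. Median Sst per cell was 0 and 194 CPM in PP cells, against 0 and 223 in alpha cells. The 90th percentile of PP cells was 912 and 990 CPM, and the maximum was 70761 and 36903. Ins1 and Ins2, whose cDNA was depleted in all clusters, stood at 93.6 and 92.7 and at 305 and 264 CPM in PP cells, against 3039 and 2072 and 7395 and 5565 in beta cells. Of 8 hormone genes listed, 7 passed the filter, with 3 higher (Ppy, Pyy and Gcg), 3 lower (Iapp, Ins1 and Ins2) and a median of 0.79 by the 2-fold rule given below. By that rule 2.58% of all genes were higher and 3.54% lower.

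Gcg, the glucagon gene, varied widely between PP cells. Summed over PP cells it stood at 21346 and 28174 CPM, against 372535 and 197711 in alpha, 4502 and 2314 in delta and 604 and 1763 in beta cells. After thinning, 47.3 and 68.3% of PP cells had a Gcg UMI, but so did 61.7 and 63.0% of stellate cells. A PP cell with 1 Gcg UMI is therefore not told apart from background, and the source of such UMIs was not tested. At or above 10000 CPM of Gcg, a limit set after the values were seen, were 50 PP cells (17.7%) of replicate 1 and 17 (41.5%) of replicate 2, and 16 and 7 cells lay between 5000 and 20000 CPM. Ppy and Gcg per cell had a rho of -0.352 and -0.771. Both values are shares of the same cell total, so more of 1 leaves less for the other. The same holds for the lower Ppy of Gcg-high cells given next.

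Cells on the high side of that limit had less Ppy and more Irx2 and Ttr. Median Ppy per cell was 142918 and 102089 CPM in the Gcg-high cells, against 239875 and 181056 in the other PP cells. Irx2, an alpha-cell transcription factor, summed to 35.2 and 22.5 CPM in Gcg-high cells, against 4.03 and 5.81 in the rest. Ttr, a hormone carrier abundant in alpha cells, summed to 8946 and 20569 CPM in Gcg-high cells, against 4601 and 7126 in the rest. Spp1 and Rcn3, both high in PP cells, stood at 299 and 225 CPM and at 375 and 277 CPM in Gcg-high cells, against 599 and 389 and against 394 and 418 in the rest. The median of Rcn3 per cell in replicate 1 ran the other way, at 344 CPM in Gcg-high cells and 318 in the rest. Cd9, also highest in PP cells, summed to 241 and 206 CPM in Gcg-high cells, against 319 and 177 in the rest, so the libraries differed in direction. Median depth was 2747 and 13369 UMIs in Gcg-high cells and 2796 and 12666 in the rest, and 2 of 50 and 1 of 17 Gcg-high cells were among the 6% of cells with the highest doublet scores, against 10 of 233 and 1 of 24 others. The part of droplets that held 2 cells was not tested.

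**Figure D2:**
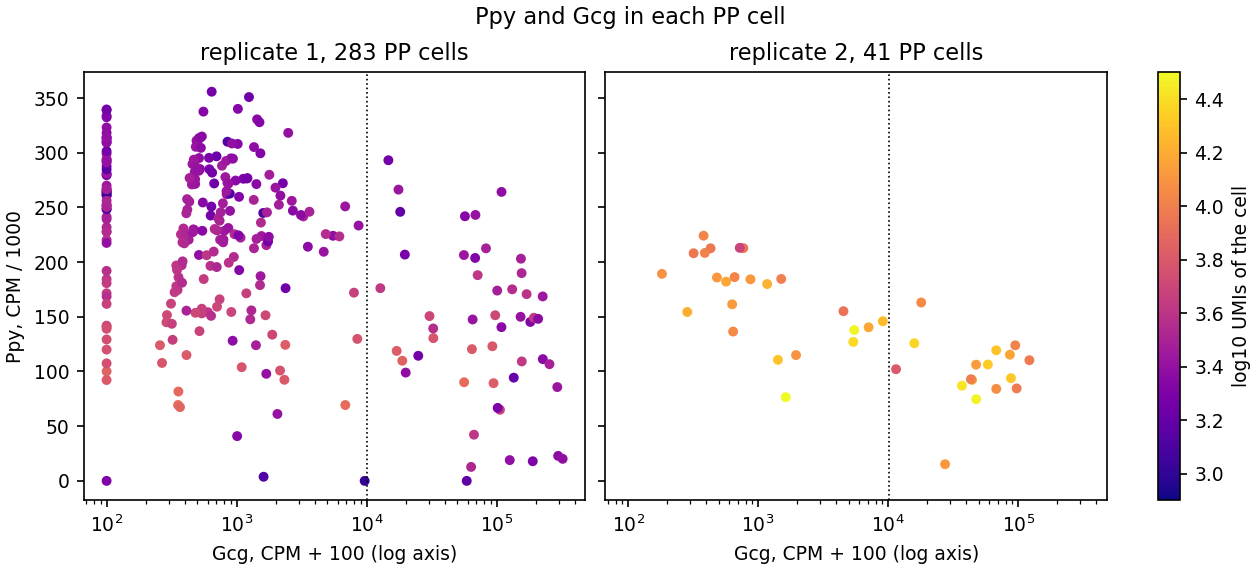
Ppy (CPM divided by 1000) against Gcg (CPM + 100, log axis) in each PP cell of replicate 1 (left, 283 cells) and replicate 2 (right, 41 cells), coloured by the log10 UMIs of the cell. The dotted line is 10000 CPM of Gcg; 50 and 17 cells lie at or right of it, and their median Ppy is 142918 and 102089 CPM, against 239875 and 181056 in the cells to the left.

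By Spearman rho in each library, the 5 genes most like Ppy across PP cells, of 1710 detected in at least 20% of them, were Gm42418, AY036118, Sdc4, Clu and Babam2. Their smaller rho over the 2 libraries was 0.263, 0.203, 0.132, 0.089 and 0.083. All of these are weak, and in sparse counts they are no finding.

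Because the authors' clusters were made from these same gene counts, gene differences between clusters are described by size and carry no p-value. A gene counts as higher or lower in PP cells when it differed at least 2-fold, in both libraries, from the mean of the alpha, delta and beta log2 levels. Of 11654 genes, 301 were higher (2.58%) and 412 lower (3.54%), and 55 (0.472%) stood at least 2-fold above each of the 3 types in both libraries. Every count of listed genes called is to be read beside these shares. The lists were chosen with earlier results of these data known. Without TMM scaling the split was 224 higher and 620 lower, and the median difference of all genes was -0.20 in place of -0.03 (log2).

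Fewest genes differed from alpha cells and most from beta cells. Counted singly, 326 genes stood 2-fold above and 464 below alpha cells in both libraries, 309 and 596 against delta cells, and 780 and 850 against beta cells. Among the 301 higher genes, 99 stood above delta and beta but not alpha cells, 52 above alpha and beta but not delta cells, 14 above alpha and delta but not beta cells, and 64 above beta cells only. Of the 412 lower genes, 66 stood below all 3 types and 94 below beta cells only. Replicate 2 rests on 41 PP cells, and the counts were 656 and 600 higher genes with replicate 2 alone and with replicate 1 alone.

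**Figure D3:**
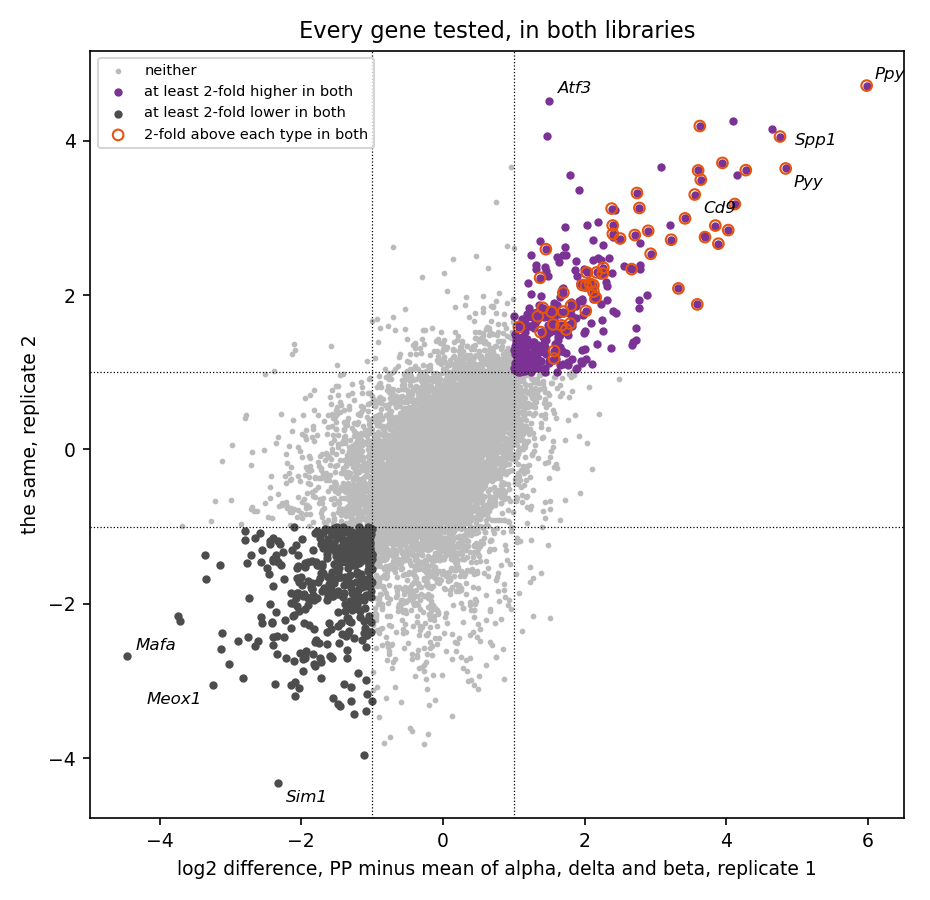
Log2 difference between PP cells and the mean of alpha, delta and beta cells for each of 11654 genes, in replicate 1 (horizontal) and replicate 2 (vertical); dotted lines mark 2-fold. The 301 genes higher in both libraries are purple, the 412 lower are dark grey and the 55 that stood above each type are ringed.

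Several of the highest genes encode secreted or carrier proteins. Spp1, which encodes osteopontin, stood at 604 and 353 CPM in PP cells, against 27.5 and 17.4 in alpha, 43.8 and 35.5 in delta and 7.37 and 12.7 in beta cells. The lowest PP value was thus far above the highest of the others. Spp1 is also 1 of 7 duct markers, which summed to 1564 and 1165 CPM in PP cells, against 415 and 475 in alpha, 804 and 811 in delta and 718 and 584 in beta cells, so the duct sum was highest in PP cells in both libraries. Of the others, Krt7 stood at 421 and 338 CPM in PP and 501 and 414 in beta cells, and Epcam at 536 and 473 CPM in PP and 539 and 551 in delta cells. Sox9 and Cftr were at 0 UMIs in PP cells, and Krt19 had 1 UMI. The part of duct RNA in these levels was not tested. Serpina7, the thyroxine-binding globulin, stood at 92.4 and 52.7 CPM in PP cells, against 8.18 and 14.6 in alpha, 6.26 and 1.16 in delta and 4.69 and 1.54 in beta cells.

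The alpha-1-antitrypsin genes Serpina1d and Serpina1a were also highest in PP cells. Serpina1d stood at 59.6 and 32.7 CPM in PP cells, against 6.69 and 7.67 in alpha, 1.79 and 0.582 in delta and 0 in beta cells. Serpina1a stood at 43.8 and 14.5 CPM in PP cells and at no more than 5.95 in any other sum. These paralogs are nearly alike in sequence, so the division of reads between them is uncertain. Cthrc1, a secreted protein of matrix and Wnt signalling, had 28.0 and 12.7 CPM in PP cells and at most 2.91 elsewhere.

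Of 32 genes listed as carriers and secreted proteins, 19 passed the filter, with 6 higher and 1 lower, beside 2.58 and 3.54% over all genes. Their median log2 difference was 0.52, against -0.03 over all genes. Clu, the chaperone clusterin, stood at 753 and 644 CPM in PP cells, against 97.4 and 85.0 in alpha, 1066 and 986 in delta and 92.7 and 82.1 in beta cells. Pappa2, a protease that cleaves binding proteins of insulin-like growth factors, had 182 and 191 CPM in PP cells, against 518 and 463 in alpha, 16.99 and 10.5 in delta and 3.68 and 6.17 in beta cells. Gc, the vitamin D-binding protein, and Sfrp5, a secreted inhibitor of Wnt ligands, were the others higher. For neither did PP cells stand 2-fold above alpha cells, with Gc at 595 and 447 CPM in PP and 369 and 421 in alpha cells and Sfrp5 at 258 and 320 against 468 and 561. Igfbp5 was at 0 UMIs in both PP sums, against 0.697 to 11.7 CPM elsewhere.

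Surface proteins were also among the genes higher in PP cells. Cd9, a tetraspanin, stood at 338 and 211 CPM in PP cells, against 50.6 and 39.7 in alpha, 22.4 and 10.5 in delta and 18.4 and 19.3 in beta cells, a log2 difference of 3.55 and 3.31. Tspan8, another tetraspanin, stood at 1047 and 665 CPM in PP cells and at 353 and 411 in delta cells, with 37.2 and 36.2 in alpha and 13.7 and 10.4 in beta cells. Folr1, the folate receptor, stood at 951 and 829 CPM in PP cells, against 75.9 and 69.7 in alpha, 321 and 365 in delta and 82.7 and 59.3 in beta cells. Of 30 surface and adhesion genes listed, 24 passed the filter, with 6 higher and 0 lower, beside 2.58 and 3.54% over all genes. Their median was -0.05. Cd81, Sema3e and Vsig1 were the other 3 higher, and Cd24a, a delta marker, was at 3.65 and 10.9 CPM in PP and 453 and 514 in delta cells.

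Olfm3, an olfactomedin of neural tissue, and S100a16, a calcium-binding protein, were shared with delta cells. Olfm3 had 75.4 and 98.2 CPM in PP, 8.18 and 6.27 in alpha, 47.4 and 49.5 in delta and 0.335 and 0 in beta cells. S100a16 had 74.2 and 49.1 CPM in PP, 5.21 and 2.79 in alpha, 51.9 and 57.7 in delta and 0.335 and 0 in beta cells.

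Further genes that were higher in PP cells act inside the cell. Kdelr3, a receptor that returns proteins to the endoplasmic reticulum, stood at 83.9 and 81.8 CPM in PP cells, against 12.6 and 18.8 in alpha, 9.84 and 16.3 in delta and 2.01 and 1.93 in beta cells. Hspb8, a small heat shock protein, stood at 105 and 113 CPM in PP cells and at no more than 25.9 elsewhere. Hpgd, which inactivates prostaglandins, had 37.7 and 18.2 CPM in PP cells, 0 in alpha, 7.15 and 8.15 in delta and 0 and 0.385 in beta cells. Depp1, a gene induced by FOXO factors, had 326 and 360 CPM in PP cells, against 78.1 and 37.6 in alpha, 85.0 and 114 in delta and 33.8 and 23.9 in beta cells. Mir205hg, the host gene of a microRNA, had 47.4 and 19.999 CPM in PP cells and at most 6.69 elsewhere. Galnt13, a glycosyltransferase, and Tent5d, a poly(A) polymerase, were the remaining genes named, and alpha cells were close to PP cells for both (62.0 and 25.5 CPM in PP and 42.4 and 26.5 in alpha for Galnt13, 31.6 and 21.8 in PP and 38.7 and 27.9 in alpha for Tent5d).

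**Figure D4:**
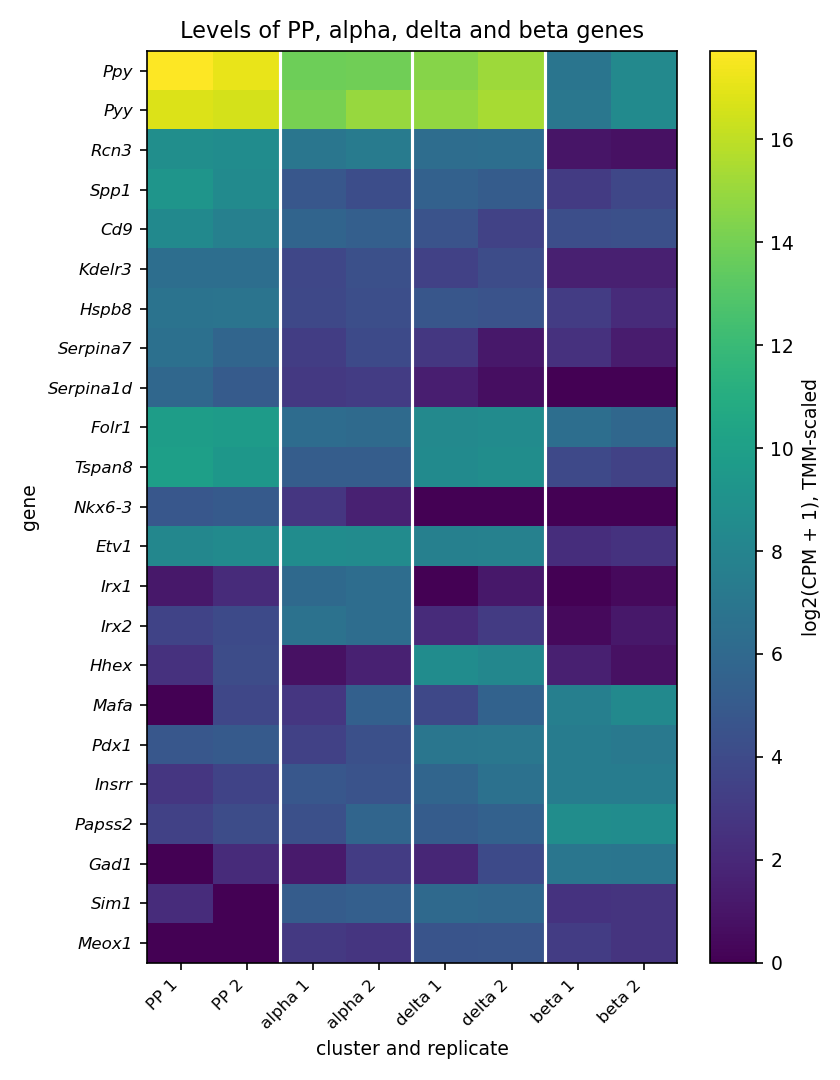
Levels of 23 named genes (rows) as log2(CPM + 1), TMM-scaled, in the summed PP, alpha, delta and beta cells of replicates 1 and 2 (columns). Spp1, Cd9, Kdelr3, Hspb8 and the Serpina genes are brightest in the PP columns, and Irx1 and Irx2 are brightest in the alpha columns.

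Transcription factors placed PP cells beside alpha cells for some genes and apart from them for others. Irx1 and Irx2, alpha-cell factors, stood at 1.22 and 3.64 and at 10.9 and 14.5 CPM in PP cells, against 64.7 and 78.7 and 99.7 and 78.7 in alpha cells. PP cells were thus far below alpha cells for both genes in both libraries.

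Nkx6-3, a homeobox factor listed here as a delta marker and known from stomach, was led by PP cells. It had 26.8 and 30.9 CPM in PP cells, 5.95 and 2.09 in alpha cells and 0 UMIs in the delta and beta sums, against its place on the delta list. Etv1, an ETS factor, stood at 291 and 358 CPM in PP, 397 and 381 in alpha, 213 and 217 in delta and 4.02 and 5.01 in beta cells. Fev, Pou3f4, Id1 and Id3 were also higher, and alpha cells stood within 2-fold of PP cells for Fev (43.8 and 34.5 CPM in PP, 38.7 and 39.0 in alpha). Id1 differed most between the libraries, at 10.9 and 52.7 CPM in PP and 20.8 and 19.5 in alpha cells.

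Beta and delta factors were low. Mafa, a beta-cell activator of insulin, had 0 and 12.7 CPM in PP cells, against 5.95 and 42.5 in alpha, 13.4 and 47.2 in delta and 204 and 338 in beta cells. Pdx1, which marks beta and delta cells, had 26.8 and 30.9 CPM in PP cells, against 9.67 and 18.8 in alpha, 123 and 126 in delta and 177 and 143 in beta cells. Hhex, a delta-cell factor, had 4.86 and 16.4 CPM in PP cells, against 388 and 288 in delta cells. In alpha and beta cells it had less, at 0.744 and 2.09 and at 2.01 and 0.771 CPM. Hhex was therefore not called lower. The factors called lower were Mafa, Pdx1, Rfx6, Insm1 and Tshz1. The pan-endocrine factors Isl1, Pax6, Neurod1 and Nkx2-2 were in neither group, with Isl1 at 249 and 275 CPM in PP and 179 to 367 in the other sums. Of 41 factors listed, 38 passed, with 7 higher and 5 lower, beside 2.58 and 3.54% over all genes, and a median of -0.32.

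Of 25 genes for hormone processing and storage, 24 passed, with 2 higher, 1 lower and a median of -0.07, beside 2.58% higher and 3.54% lower over all genes. Scg5, the chaperone of the convertase encoded by Pcsk2, stood at 3832 and 3276 CPM in PP cells, against 2217 and 2228 in alpha, 1569 and 1543 in delta and 1651 and 1207 in beta cells. Qpct, which cyclises the ends of peptides, had 24.3 and 29.1 CPM in PP cells and 3.08 to 7.67 elsewhere. Slc30a8, the zinc transporter of insulin granules, was lower, at 131 and 187 CPM in PP, 922 and 778 in alpha, 78.7 and 121 in delta and 1065 and 993 in beta cells. Pcsk2 itself had 3046 and 2685 CPM in PP cells, 5701 and 4524 in alpha, 2358 and 2068 in delta and 2860 and 2498 in beta cells. Pam, the amidating enzyme, had 777 and 467 CPM in PP cells and 195 to 825 elsewhere.

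Of 29 exocytosis genes, 26 passed, with 1 higher, 1 lower and a median of 0.01, beside 2.58% higher and 3.54% lower over all genes. The higher gene, the small GTPase Rab3c, had 54.7 and 52.7 CPM in PP cells but 81.1 and 71.1 in alpha cells. The lower gene, the granule protein Sytl4, had 6.08 and 10.9 CPM in PP and 189 and 207 in beta cells. Among 39 genes of folding in the endoplasmic reticulum, 36 passed and the reticulocalbins Rcn1 and Rcn3 were higher. Rcn1 had 58.4 and 54.5 CPM in PP, 52.8 and 62.7 in alpha, 26.8 and 20.96 in delta and 11.05 and 6.55 in beta cells. The oxidase Ero1lb was the only one lower, at 102 and 120 CPM in PP, 129 to 253 in alpha and delta and 1411 and 1339 in beta cells. The median of that list was 0.20, and it was 0.01 without TMM scaling. Its counts stand beside the same shares over all genes.

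Receptors on the list of 57 gave 38 that passed, with 4 higher and 6 lower, beside 2.58 and 3.54% over all genes. Their median was -0.32. Ffar4, a receptor for long-chain fatty acids, had 79.0 and 81.8 CPM in PP, 58.8 and 62.7 in alpha, 86.8 and 102 in delta and 3.68 and 0.771 in beta cells, so only beta cells stood apart. Gpr119, a lipid receptor, had 63.2 and 34.5 CPM in PP, 40.2 and 55.7 in alpha, 2.68 and 3.49 in delta and 19.4 and 15.8 in beta cells. Mc4r, the melanocortin receptor of appetite control, had only 7 and 4 UMIs in PP cells (8.51 and 7.27 CPM) and at most 3.48 CPM elsewhere. The glutamate receptor subunit gene Gria2 was the fourth, at 156 and 102 CPM in PP and 312 and 174 in alpha cells.

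Lower were Glp1r, Prlr, Adra2a, P2ry1, Adora1 and Egfr. Glp1r, the receptor of the incretin GLP-1, had 15.8 and 32.7 CPM in PP, 11.2 and 57.8 in alpha, 54.6 and 108 in delta and 565 and 524 in beta cells. Prlr, the prolactin receptor, had 28.0 and 43.6 CPM in PP, 19.3 and 56.4 in alpha, 43.8 and 98.4 in delta and 552 and 489 in beta cells. For both, PP cells overlapped alpha cells, and beta cells set the difference. P2ry1, a nucleotide receptor, had 3.65 and 1.82 CPM in PP, 1.49 and 4.88 in alpha, 42.9 and 52.4 in delta and 66.3 and 54.7 in beta cells.

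Several metabolic and transport genes were far higher in beta than in PP cells. G6pc2, a glucose-6-phosphatase, had 35.3 and 83.6 CPM in PP, 59.5 and 141 in alpha, 105 and 144 in delta and 2275 and 1604 in beta cells. Slc2a2, the glucose transporter of beta cells, had 19.5 and 38.2 CPM in PP, 16.4 and 66.9 in alpha, 42.9 and 77.4 in delta and 856 and 618 in beta cells. Of 33 genes of glucose use, 25 passed, with Hk1 and Pdk4 higher and Slc2a2, G6pc2, Pcx and Gpd2 lower. Their median was 0.07 (-0.12 without TMM scaling), and over all genes 2.58% were higher and 3.54% lower. Pdk4 had 26.8 and 23.6 CPM in PP cells but 125 and 82.9 in alpha cells. Atp2a2 and Atp2a3, calcium pumps of the endoplasmic reticulum, stood at 89.99 and 81.8 and at 52.3 and 41.8 CPM in PP cells, against 712 and 785 and 293 and 310 in beta cells.

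Of 37 transport genes 25 passed, with 1 higher, Fxyd3, a regulator of the sodium pump (136 and 118 CPM in PP, 28.3 and 18.1 in alpha, 75.1 and 134 in delta, 9.37 and 18.5 in beta cells), and 5 lower, at a median of -0.40. Slc38a5, the glutamine transporter of alpha cells, was among these, at 4.86 and 9.09 CPM in PP and 87.0 and 141 in alpha cells. Of 33 ion channel genes 27 passed, with Kcnk3 and Kcnh6 higher and Trpm5 and Trpc1 lower, at a median of -0.27. Kcnk3, an alpha marker, had 58.4 and 29.1 CPM in PP cells but 99.7 and 89.9 in alpha cells. Kcnh6 had 49.9 and 40.0 CPM in PP and 53.6 and 22.3 in alpha cells. The 45 ribosomal protein genes gave none higher or lower at a median of 0.21 (0.02 without TMM scaling), and the 38 respiratory chain genes gave 1 lower, Cox6a2, at 0.13 (-0.06 without TMM scaling). Of 40 splicing regulators 37 passed, with Rbfox3 lower at a median of 0.08 (-0.10 without TMM scaling). All counts of these lists stand beside 2.58% higher and 3.54% lower over all genes.

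Other peptide genes were few. Of 31 listed, 10 passed, with 2 higher, 1 lower and a median of -0.69, beside 2.58 and 3.54% over all genes. Edn3, an endothelin, had 63.2 and 54.5 CPM in PP, 150 and 131 in alpha, 4.47 and 6.41 in delta and 0 in beta cells. Calca, the calcitonin and CGRP gene, had 11 and 7 UMIs in PP cells (13.4 and 12.7 CPM), close to alpha cells at 11.9 and 16.7. Ucn3, a beta-cell peptide, had 12.2 and 30.9 CPM in PP and 912 and 880 in beta cells. Of 18 genes known from human gamma cells, 10 passed, with Etv1, Sertm1 and Tmem176a higher, 0 lower and a median of 0.49. Over all genes, 2.58% were higher and 3.54% lower. Etv1, given above, stood below alpha cells in both libraries. So did Sertm1, with only 6 and 4 UMIs in PP cells (7.30 and 7.27 CPM, against 7.44 and 14.6 in alpha). Of the genes called here, only Tmem176a stood above alpha cells. Tmem176a, a membrane protein of immune cells, had 480 and 571 CPM in PP, 144 and 168 in alpha, 195 and 236 in delta and 152 and 159 in beta cells.

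Immediate early genes stood above the mean of alpha, delta and beta cells in PP cells, and more so in replicate 2. Of 27 listed, 26 passed, with 10 higher and 0 lower, beside 2.58 and 3.54% over all genes. However, 0 of them stood 2-fold above each of the other types in both libraries. The median was 0.96 (0.64 in replicate 1 and 1.35 in replicate 2), against -0.03 over all genes. Atf3, a stress-induced factor, had 29.2 and 1084 CPM in PP, 75.1 and 376 in alpha, 11.6 and 58.2 in delta and 0 and 3.47 in beta cells. PP cells therefore stood below alpha cells in replicate 1 and above them in replicate 2. Fos had 1366 and 4204 CPM in PP, 1521 and 2506 in alpha, 584 and 1853 in delta and 182 and 397 in beta cells. Hspb1, a small heat shock protein, had 118 and 231 CPM in PP, 17.1 and 24.4 in alpha, 165 and 311 in delta and 2.34 and 1.16 in beta cells. Jun, Junb, Ier2, Zfp36, Dusp1, Klf4 and Myc were the others. In replicate 1 alpha cells exceeded PP cells for Klf4 (57.3 against 30.4 CPM) and Zfp36 (146 against 122 CPM). In replicate 2 PP cells were ahead for both, at 107 against 95.5 and 402 against 220 CPM. Immediate early genes are switched on quickly by many stimuli. Median UMIs per PP cell were also higher in replicate 2, and the part of depth in these values was not tested.

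The lower genes named were mostly led by beta or delta cells. Insrr, a receptor related to the insulin receptor, had 6.08 and 10.9 CPM in PP, 26.8 and 22.3 in alpha, 54.6 and 94.9 in delta and 171 and 171 in beta cells, with log2 differences of -3.14 and -2.58. Papss2, an enzyme of sulfate activation, had 9.73 and 16.4 CPM in PP, 19.3 and 53.0 in alpha, 34.9 and 44.8 in delta and 407 and 387 in beta cells. Gad1, which makes GABA, had 0 and 3.64 CPM in PP cells and 124 and 118 in beta cells. Sim1, a neural transcription factor, had 3.65 and 0 CPM in PP, 34.2 and 40.4 in alpha, 67.1 and 58.2 in delta and 5.02 and 5.40 in beta cells.

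A group of genes had 0 UMIs in both PP sums. Meox1, a homeobox factor, was at 6.69 and 5.57 CPM in alpha, 23.3 and 24.5 in delta and 7.70 and 5.40 in beta cells. Zfp703, a zinc finger repressor, was at 31.2 and 16.03 CPM in alpha cells, and Dlk1, an imprinted Notch-like protein, at 59.0 and 25.6 in delta cells. Plppr1, St8sia5, Dnah14 and Rbfox3 were the others, each at no more than 25.0 CPM in any sum. The floor of 3 UMIs is 3.28 and 4.91 CPM in PP cells, so lower expression than that was not detectable. Cdhr1, Klhl32, Col27a1 and Lrp8, the rest of the 15 genes named, had 0 to 4 UMIs in each PP sum.

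Markers of alpha, delta, beta and duct cells were well represented in the PP sums, and those of the other cell types were low. The summed 9 alpha markers stood at 28165 and 43261 CPM in PP and 419124 and 268029 in alpha cells, mostly Gcg and Ttr. The 7 delta markers summed to 4721 and 5523 CPM in PP and 148935 and 113993 in delta cells, mostly Sst, and Ptprz1 was at 0. The 10 beta markers summed to 7193 and 11200 CPM in PP and 125965 and 100327 in beta cells, mostly Iapp. Of 7 endothelial markers 5 were at 0 (Cdh5, Kdr, Flt1, Esm1, Emcn) with sums of 12.2 and 3.64 CPM in PP and 7.15 to 19.3 in the other types. Macrophage markers summed to 117 and 111 CPM in PP and 91.3 to 139 elsewhere, nearly all C1qa, with Cd68, C1qb, Lyz2, Adgre1 and Ptprc at 0. Schwann markers summed to 30.4 and 30.9 CPM, T and B cell markers to 9.73 and 5.45, cycling markers to 7.30 and 0, neuronal markers to 1.22 and 1.82 and erythroid markers to 1.22 and 0, and Ghrl, the epsilon marker, had 2.43 and 0 CPM in PP cells. Acinar markers summed to 0 and 30.9 CPM and stellate markers to 6.08 and 0, and the part of such RNA in the results was not tested.

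The share of each transcript within its gene was not used to make the clusters, which rest on gene counts, so isoforms could be tested. Shares of PP cells were tested against the mean of alpha, delta and beta cells with edgeR's diffSpliceDGE, with library as a block and Benjamini-Hochberg adjustment. Of 5425 genes, 5 (0.0922%) passed at 0.05, and 252 had an unadjusted p under 0.05. The genes were Gnas, Rpl22l1, Arid4a, Gin1 and Coro2b, and 7 of 14753 transcripts passed on their own. With 8 sums of 2 libraries the test had 3 residual degrees of freedom.

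The sequences that set the called Gnas and Rpl22l1 transcripts apart are shown, with the Pyy exon that differs between its isoforms. They are GENCODE M21 sequence on mm10, and capitals mark the bases that set the isoform apart. The Gnas-221 line, on the plus strand of chromosome 2, joins the end of the first exon to the 24-base second exon at chr2:174328108-174328131. The Rpl22l1-204 line, at chr3:28806722-28806751 on the plus strand, crosses from the end of its 67 extra bases into the exon shared with Rpl22l1-201. The Pyy-204 line is the third exon, at chr11:102106967-102107056 on the minus strand, which is 6 bases longer than in Pyy-201.
Gnas-221: tcacatAGCTAACCCAAGGAGCACCTAAGG
Rpl22l1-204: TCTGTTTGAAAATAGgaacagtttctacgg
Pyy-204: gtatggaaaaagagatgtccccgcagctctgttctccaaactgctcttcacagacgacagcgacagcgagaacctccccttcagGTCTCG

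Gnas, which encodes the stimulatory G protein subunit that raises cAMP and is an imprinted gene with several alternative starts, lies at chr2:174284320-174346744. The transcripts Gnas-221, Gnas-219 and Gnas-217, which contain the 24-base exon, together made up 29.7 and 44.1% of Gnas UMIs in PP cells (114 and 120 UMIs). They made up 54.9 and 59.1% in alpha, 1.55 and 2.00% in delta and 3.21 and 3.03% in beta cells. PP cells therefore stood far above delta and beta cells and below alpha cells in both libraries. Each of the 3 transcripts passed, with an adjusted p of 1.4e-12 for Gnas-221, 8.8e-09 for Gnas-219 and 9.6e-10 for Gnas-217 in edgeR's diffSpliceDGE. Gnas-221 alone had shares of 14.8 and 21.3% in PP, 21.3 and 31.6% in alpha, 0.773 and 0.904% in delta and 2.32 and 2.36% in beta cells. The transcripts Gnas-211 and Gnas-222, which start at the upstream Nesp exons, made up 12.5 and 20.6% in PP, 13.2 and 19.4% in alpha, 78.8 and 83.4% in delta and 2.14 and 0.673% in beta cells, so PP and alpha cells overlapped.

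Rpl22l1-204, which GENCODE annotates as a target of nonsense-mediated decay of the ribosomal protein gene Rpl22l1, had shares of 2.70 and 20.9% in PP, 3.52 and 8.92% in alpha, 1.68 and 6.19% in delta and 0.901 and 1.73% in beta cells. Its adjusted p was 5.1e-08, but replicate 2 decided it: the difference from the mean of the 3 types was 0.67 percentage points in replicate 1 and 15.3 in replicate 2. Without library as a block the call was lost, with an adjusted p of 1.0.

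Arid4a-204, of a chromatin regulator that binds the retinoblastoma protein, had shares of 65.8 and 66.7% in PP, 20.7 and 25.0% in alpha, 54.3 and 54.3% in delta and 0 and 11.1% in beta cells, with 21 to 70 gene UMIs in each sum (adjusted p of 0.02 by edgeR). Gin1-203 had 12.8 and 26.7% in PP cells, on 5 and 8 UMIs, against 0 to 5.26% in the other sums (adjusted p of 0.02 by edgeR). Both calls were lost without the block, at an adjusted p of 0.3 and 0.23. Coro2b-203, of an actin-binding coronin, was named after its values were seen because 1 sum had only 12 gene UMIs. It had shares of 79.2 and 83.3% in PP, 45.0 and 36.1% in alpha, 46.2 and 67.9% in delta and 1.06 and 0% in beta cells, with an adjusted p of 0.00014 by edgeR.

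**Figure D5:**
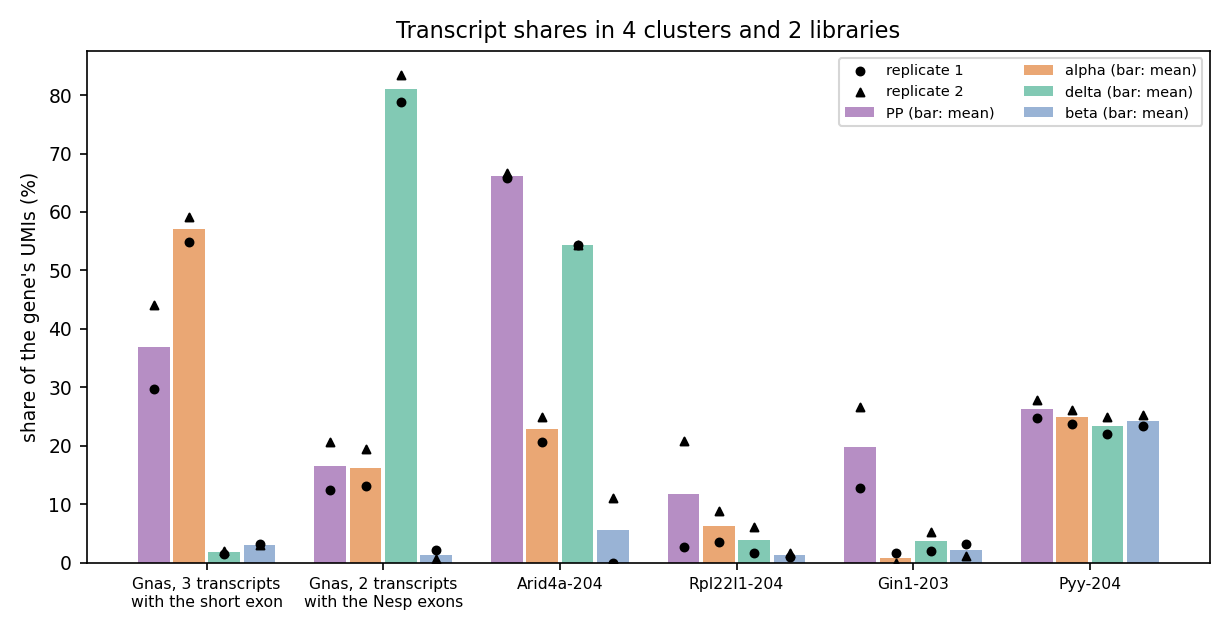
Share of each gene's UMIs (percent) held by a transcript or group of transcripts in PP, alpha, delta and beta cells; bars are means of 2 libraries, circles replicate 1 and triangles replicate 2. The 3 Gnas transcripts with the short exon reach 29.7 and 44.1% in PP cells, between alpha cells and the near-0 delta and beta cells, while Pyy-204 lies at 22.0 to 27.9% in every cluster.

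The hormone genes themselves showed no isoform difference that passed the test. Ppy-201 made up 93.8 and 93.6% of Ppy UMIs in PP, 93.3 and 92.1% in alpha, 94.6 and 94.5% in delta and 93.5 and 90.2% in beta cells (182765 and 83640 UMIs in PP cells, adjusted p of 1.0 by edgeR). Pyy-201 made up 75.1 and 72.0% in PP and 73.8 to 77.7% elsewhere. Pyy-204 made up 24.8 and 27.9% in PP, 23.7 and 26.2% in alpha, 22.0 and 24.9% in delta and 23.4 and 25.2% in beta cells (adjusted p of 1.0 by edgeR). The libraries differed in Pyy-204 within PP cells by as much as the cell types did within a library.

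Among 1174 transcripts of 462 genes with at least 50 gene UMIs in all 8 sums, only 3 stood at least 10 percentage points above all 3 other types in both libraries, and 0 stood that far below. Srsf5-201, of a splicing factor, had 49.1 and 54.5% in PP, 26.9 and 26.9% in alpha, 29.1 and 29.3% in delta and 27.4 and 34.1% in beta cells, which missed the test at an adjusted p of 0.41 by edgeR. Papola-211, of the poly(A) polymerase, and Rnf130-201, of a ubiquitin ligase, were the others. The median absolute difference in share was 4.48 and 3.42 percentage points to alpha, 3.25 and 3.24 to delta and 3.27 and 3.88 to beta cells, smallest to delta cells in both libraries, though by little over beta cells in replicate 1 and alpha cells in replicate 2.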

How the data were processed

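The authors deposited raw UMI counts, by gene and by transcript, and a cell table with cluster names for the 2 modified 5' libraries analysed here of 7 samples in the labels. Build mm10 and Seurat come from the submitters' processing notes; the aligner, the counting tool, its use of strand and what the tables are a subset of are not given in the sources used here. Summed UMIs per kept cell were compared with the totals in that table. A replicate is a library, each of which gives every cluster, so library is the pairing and the block.

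UMI counts were summed for PP, alpha, delta and beta cells of each library (8 sums) and scaled by TMM in edgeR 4.0.16 (R 4.3.3) with a prior count of 2 after filterByExpr. Gene differences carry no test. GENCODE M21 gave the gene of each transcript (69626 of 69994, 99.88% of UMIs). Those with 10 UMIs and a share of 5% were tested with diffSpliceDGE and Simes p-values per gene. Doublets were sought with Scrublet (scanpy 1.11.5, expected rate 6%), which called 6 (0.125%) and 13 (1.19%) cells, which is too few, and 0 PP cells; no cell was removed in the main results, and the 6% with the highest scores were left out as an alternative. The pipeline was tested on simulated data. Genes named were the PP markers and PP-fold genes, the 15 with the largest smaller-of-2-libraries difference in each direction and the 10 with the largest gap to the next type (at least 50 UMIs, without other types' markers and predicted genes), and up to 4 per list, plus further list members called higher or lower; isoforms needed 20 gene UMIs in each sum. The 18 gene lists, 15 marker sets and members were chosen with earlier results of these data known. Intervals and floors (3 counts) cover counting error only. Some genes that these rules name are not reported here.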

Additional observations from a re-analysis of the deposited data

Results flagged for a closer look

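Barcodes that the authors' cell table leaves out were used in no comparison, and some held much Ppy. Of 1581 such barcodes in replicate 1, 38 had at least 100000 CPM of Ppy, with a median of 630 UMIs, and of 1031 in replicate 2, 4 did, with a median of 6070 UMIs. These are flagged as a signal in data outside the main measurement, and whether they were PP cells was not tested.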

How the results depend on the processing

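The counts of genes by size depended on the settings. With UMIs thinned to equal totals, 176 genes were higher, 241 lower and 27 above each type, in place of 301, 412 and 55. Without replicate 1 or without replicate 2, the ranges were 600 to 656 higher, 1020 to 1416 lower and 108 to 158 above each type, since 1 library then had to pass alone. Lower genes numbered 620 without TMM scaling, 653 without a filter and 669 against all clusters named alpha, delta and beta; against the arithmetic mean of the 3 types, 185 were higher and 667 lower. An adjusted p in place of the fold, circular between clusters, gave 1261 higher and 815 lower genes with edgeR and 584 higher with DESeq2. Without the replicate block, edgeR gave 482 higher and 271 lower genes, and 2 genes with an isoform call in place of 5. Isoform calls numbered 8 without the share minimum, 29 by the gene-level F test, 3 after thinning and 12 against all named clusters. Arid4a-204 and Gin1-203 missed the threshold after thinning, at an adjusted p of 0.095 and 0.45 by edgeR. A test of isoforms without a replicate could not be fitted, since no residual degrees of freedom remain. Other counts stayed within 1.5 times, and 113 or 114 of 114 named genes kept their sign under each of 9 settings. Genes named because they were called in both libraries could not change sign with 1 library left out. For those genes the kept sign is therefore no support. The part of depth in these shifts was not tested beyond the thinning. The alternative without the highest doublet scores was chosen after seeing the data. The 41 PP cells of replicate 2 limit what it can show.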
